A study of Mus musculus with 4 samples.

Results

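The 10 genes described here encode the calcium-dependent phosphatase calcineurin, the NFAT transcription factors that it activates and the RCAN proteins that bind and regulate it. They are Ppp3ca, Ppp3cb, Ppp3cc and Ppp3r1 for calcineurin, Nfatc1, Nfatc2, Nfatc3 and Nfatc4 for NFAT, and Rcan1 and Rcan2. They were found by gene symbol in the platform annotation and are 10 of the 18193 genes with a probe set of their own on the array. They had 33 of the 34945 probe sets that name a single gene, and 1 further probe set is shared by Ppp3r1 and its neighbour Wdr92. Each gene is represented by its brightest probe set, by mean log2(signal + 16) over the 4 arrays, with the others beside it. RNA came from whole trachea of C57BL/6 mouse embryos at embryonic day 16, in 2 samples labelled a1H knockout, described as homozygous in the study's design, and 2 of wild type, each hybridised to 1 Affymetrix array. The name a1H is read as the pore subunit of a T-type calcium channel, the product of Cacna1h. The labels do not give the deleted part of the gene or say if a sample is 1 embryo or a pool. P-values therefore measure only how far these samples spread, and that spread may be technical. The comparison asks which transcripts differ in tracheas labelled as knockout for this channel. It was read here for the pathway that turns calcium signals into transcription.

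Calcineurin is a heterodimer of a catalytic A subunit, encoded by Ppp3ca, Ppp3cb or Ppp3cc, and a calcium-binding regulatory B subunit, encoded by Ppp3r1 in most tissues. When calcium rises, calmodulin and the B subunit activate the phosphatase, which removes phosphates from cytoplasmic NFATc proteins so that they enter the nucleus, and kinases such as GSK3, CK1 and DYRK send them out again. Much of this switch acts on proteins, and transcript levels do not show it. Rcan1 is both a calcineurin inhibitor and a known NFAT target gene, and NFAT proteins are known from T-cell activation, heart valves, osteoclasts and cartilage.

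The library labels could not be checked against Cacna1h, because the positions of its probe sets relative to the deletion are not known. Cacna1h, on its brighter probe set, read 981 and 631 on the arrays labelled knockout, against 630 and 538 in wild type, with both labelled knockout values above wild type (log2 difference 0.43, SE 0.32, limma adjusted p = 0.875). Directions therefore rest on the labels, and the samples are called the labelled knockout. Cartilage genes (all 6 listed, such as Col2a1 and Acan), smooth muscle genes (5 of 5) and epithelial genes (5 of 6) were at or above the median level used as a filter on dim probe sets. The exception was the airway factor Nkx2-1, at 145 and 145 in the labelled knockout, against 337 and 216 in wild type. The arrays also carried RNA of neighbouring organs. The summed signal of 5 heart genes was 59817 and 1502 in the labelled knockout, against 33712 and 14214 in wild type, and that of 7 thymocyte genes was 27436 and 10027, against 4223 and 13167. Spiked hybridisation controls followed the replicate number, with geometric means of 4744 and 14007 on the labelled knockout arrays 1 and 2, and 4787 and 11598 on the wild-type arrays 1 and 2. The actin 3′ to 5′ signal ratio followed the genotype label, at 1.90 and 1.97 in the labelled knockout, against 1.69 and 1.66 in wild type. The same ratio for Gapdh overlapped, at 1.36 and 1.61 in the labelled knockout, against 1.26 and 1.40 in wild type.

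Between genotypes none of the 10 genes passed the test. All 10 reached the median level, which corresponds to a signal of 397, and entered the limma fit, which held 11694 genes in all. In the limma fit 0 of 10 had a Benjamini-Hochberg adjusted p under 0.05, where the share over all genes tested was 0%, and 0 of 10 had an unadjusted p under 0.05, where the share over all genes was 4.58%. Their adjusted p-values began at 0.889. Of the 10 log2 differences, labelled knockout minus wild type, 7 were above 0 and 3 below, with a median of 0.05, where over all genes tested 55.9% were above 0 and the median was 0.04. The groups did not overlap for 1 gene, Ppp3ca, which was higher in the labelled knockout, where 36.1% of all genes tested did not overlap (21.5% higher and 14.6% lower). The sign was the same within both replicate numbers for 4 of the 10, against 62.3% of all genes tested. An exact two-sided permutation test of 2 arrays against 2 cannot give a p below 0.333. For 8 of the 10 genes the 95% interval of the difference on the brightest probe set lay within 2-fold in both directions. For Ppp3cc and Rcan2 it did not. Further fitted probe sets of Ppp3r1, Ppp3cb, Nfatc2 and Nfatc3 had lower interval ends of -1.65, -1.09, -1.14 and -1.07 in log2, past 2-fold. A 2-fold change was therefore not excluded at this precision for Ppp3cc, Rcan2 or these genes. Nor was it on dim probe sets of other genes in a fit without the level filter. There Nfatc4 1432821_at was at -1.60 (SE 0.89) and Nfatc1 1425761_a_at at -0.66 (SE 0.61). In a bulk tissue sample, fewer cells of a type and less RNA per cell cannot be told apart.

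**Figure D1:**
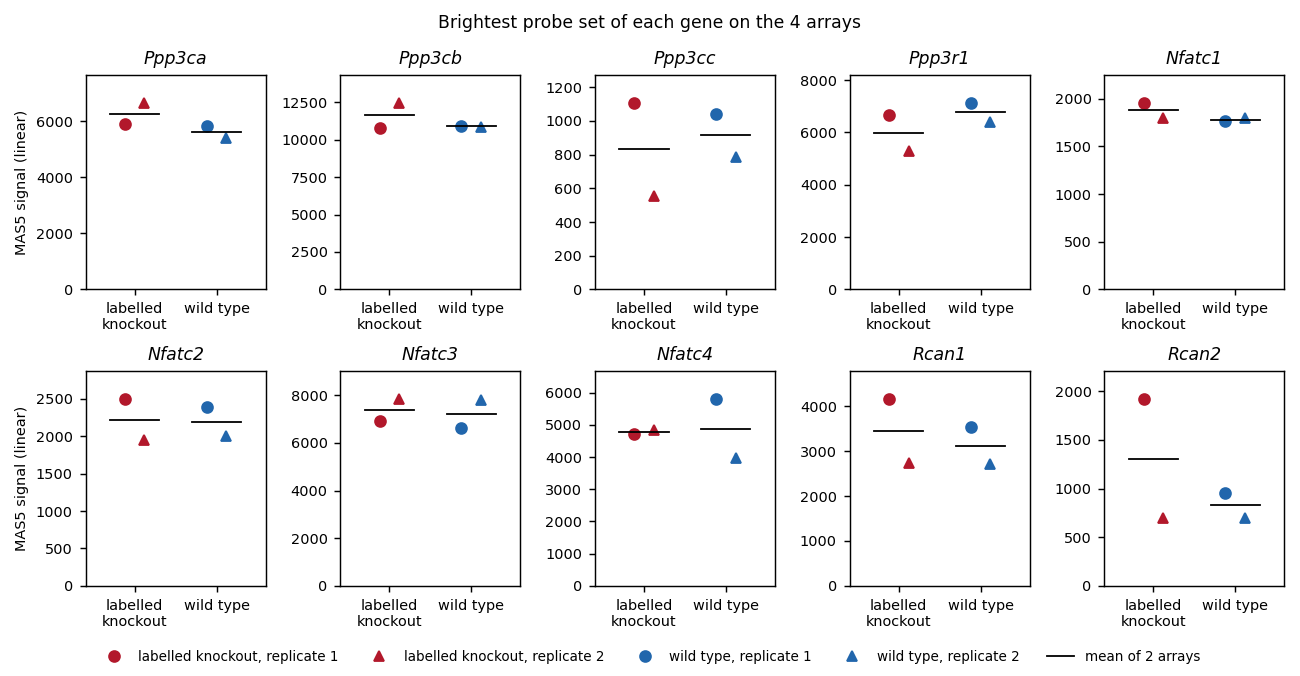
MAS5 signal (linear scale, from 0) of the brightest probe set of each of the 10 genes on the 2 labelled knockout and 2 wild-type arrays, with circles for replicate 1, triangles for replicate 2 and a line for the mean of 2 arrays. The groups overlap in every panel except Ppp3ca, and Rcan2 on labelled knockout replicate 1 stands at 1922, against 693 to 958 on the other 3 arrays.

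On their brightest probe sets the catalytic subunit genes had log2 differences of 0.16, 0.09 and -0.20, none past the test. Ppp3ca, the alpha form of the catalytic subunit, read 5888 and 6669 in the labelled knockout, against 5844 and 5395 in wild type. Both labelled knockout values lay above wild type, with nearly equal replicate 1 arrays and a wider gap between the replicate 2 arrays. The log2 difference was 0.16 (SE 0.17, limma adjusted p = 0.905), with 0.01 within replicate number 1 and 0.30 within number 2. Ppp3cb, the beta form, read 10782 and 12466 in the labelled knockout, against 10927 and 10847 in wild type. The wild-type pair lay between the labelled knockout values, and the log2 difference was 0.09, with a 95% interval from -0.37 to 0.56. Ppp3cc, the gamma form, known for its role in sperm, read 1108 and 555 in the labelled knockout, against 1041 and 788 in wild type, a log2 difference of -0.20 (95% interval -1.09 to 0.69). Its groups overlapped, and both replicate 1 arrays were above both replicate 2 arrays.

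Among the 19 fitted probe sets of the 10 genes, 1 had a 95% interval that excluded 0, or an unadjusted limma p under 0.05. The share over all probe sets fitted was 4.08%. The 1 probe set was the dimmer one of the regulatory subunit gene Ppp3r1. On the brightest probe set, 1433591_at, Ppp3r1 read 6671 and 5296 in the labelled knockout, against 7143 and 6418 in wild type, a log2 difference of -0.19 (SE 0.19, limma adjusted p = 0.894) with overlapping groups. Its other probe set, 1421786_at, read 998 and 667 in the labelled knockout, against 1700 and 1431 in wild type. Both labelled knockout values were well under both wild-type values, and the fit over all 22519 probe sets at or above the median level gave a log2 difference of -0.92 (SE 0.31), or 0.528 of the wild-type signal, with a 95% interval from 0.318 to 0.877. The difference held its sign within both replicate numbers, at -0.76 and -1.08, but did not pass adjustment over all probe sets (unadjusted p = 0.0209, limma adjusted p = 0.872, rank 274 of 22519). With labelled knockout replicate 1 left out it was at -1.21 (limma adjusted p = 0.0174), a fit in which the lone labelled knockout array is assumed to vary like the wild-type pair, and in the gene fit of that kind 492 genes passed.

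A further probe set, 1450368_a_at, which the annotation gives to both Wdr92 and Ppp3r1, also had lower values on both labelled knockout arrays. It read 539 and 493 in the labelled knockout, against 967 and 1040 in wild type, a log2 difference of -0.94 (SE 0.29, limma adjusted p = 0.872) with -0.82 and -1.05 within the replicate numbers. It was named after its values were seen. It carries the same Ppp3r1 transcript accession as 1421786_at in the platform annotation, so the 2 may read overlapping sequence and are not independent. Wdr92, a WD-repeat gene that follows Ppp3r1 on chromosome 11, had 2 fitted probe sets of its own, with log2 differences of -0.07 and 0.14.

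**Figure D2:**
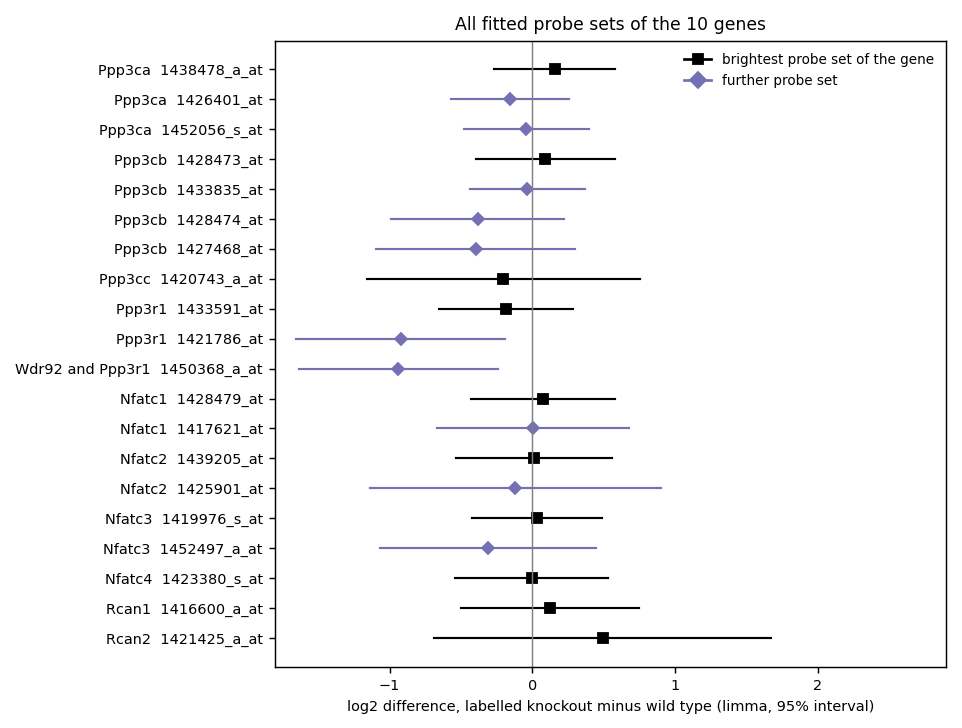
Log2 difference, labelled knockout minus wild type, with its 95% interval, for the 19 fitted probe sets of the 10 genes and the 1 shared by Wdr92 and Ppp3r1. Squares mark the brightest probe set of each gene and diamonds the further ones, and the intervals of 1421786_at and 1450368_a_at are the 2 that lie wholly below 0.

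Of the 33 probe sets, 19 were at or above the median level and 14 were below it. Among the 14 dim ones, Ppp3cb 1446149_at read 16.8 and 63.2 in the labelled knockout, against 148 and 110 in wild type, and had an unadjusted p of 0.0413 (log2 difference -1.49, limma adjusted p = 0.823) in a fit without the level filter. Among the 19, 0 had a limma adjusted p under 0.05 (0% of all probe sets fitted) and 1, Ppp3r1 1421786_at, had an unadjusted p under 0.05, where the share over all probe sets was 4.08%. The groups did not overlap for 5 of them (35.8% of all probe sets fitted), with 1 higher and 4 lower in the labelled knockout, against 17.2% and 18.5% of all probe sets fitted. The 4 lower ones belonged to Ppp3ca, Ppp3cb (2 probe sets) and Ppp3r1. Ppp3cb on 1428474_at read 1102 and 1026 in the labelled knockout, against 1313 and 1475 in wild type. Ppp3cb on 1427468_at read 906 and 885 in the labelled knockout, against 1389 and 1010 in wild type. Their log2 differences were -0.38 and -0.40, each with a limma adjusted p of 0.872, and a further Ppp3cb probe set, 1433835_at, had -0.04. For Ppp3ca the probe sets went opposite ways, since 1426401_at read 5100 and 5757 in the labelled knockout, against 6075 and 6017 in wild type (log2 difference -0.16), where the brightest one had 0.16.

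The ratio of 2 probe sets of 1 gene on the same array is unchanged by a constant scale factor of that array. Normalisation that depends on intensity can still change it. It was computed for the 6 genes with more than 1 fitted probe set. For Ppp3r1, 1421786_at stood at 15.0% and 12.6% of 1433591_at in the labelled knockout, against 23.8% and 22.3% in wild type. The groups were apart, and the log2 difference of the ratio was -0.73 (SE 0.24, unadjusted p = 0.0207, limma adjusted p = 0.965 over 7884 such ratios of 4801 genes). After quantile normalisation this log2 difference was -0.65. For Ppp3cb, 1428474_at stood at 10.2% and 8.23% of 1428473_at in the labelled knockout, against 12.0% and 13.6% in wild type. For Ppp3ca, 1426401_at stood at 86.6% and 86.3% of 1438478_a_at in the labelled knockout, against 104% and 112% in wild type. All 9 ratios of these genes were lower in the labelled knockout, 6 of them without overlap, and 0 of the 9 passed the limma test. Ratios of 1 gene share its brightest probe set, as those of Ppp3cb and of Ppp3ca do, so the 9 are not independent. The shared one of Ppp3ca was itself higher in the labelled knockout without overlap. Ratios of probe sets were lower in the labelled knockout over the whole array as well. Of the 7884 ratios 4885 were below 0 in log2 difference, the median was -0.09 beside -0.32 for the 9, and 20.9% were lower without overlap and 11.5% higher. Over all ratios 4.52% had an unadjusted p under 0.05, as had 1 of the 9. The actin 3′ to 5′ ratio given above was higher in the labelled knockout and that of Gapdh overlapped, and the part of RNA length in these ratios was not tested.

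**Figure D3:**
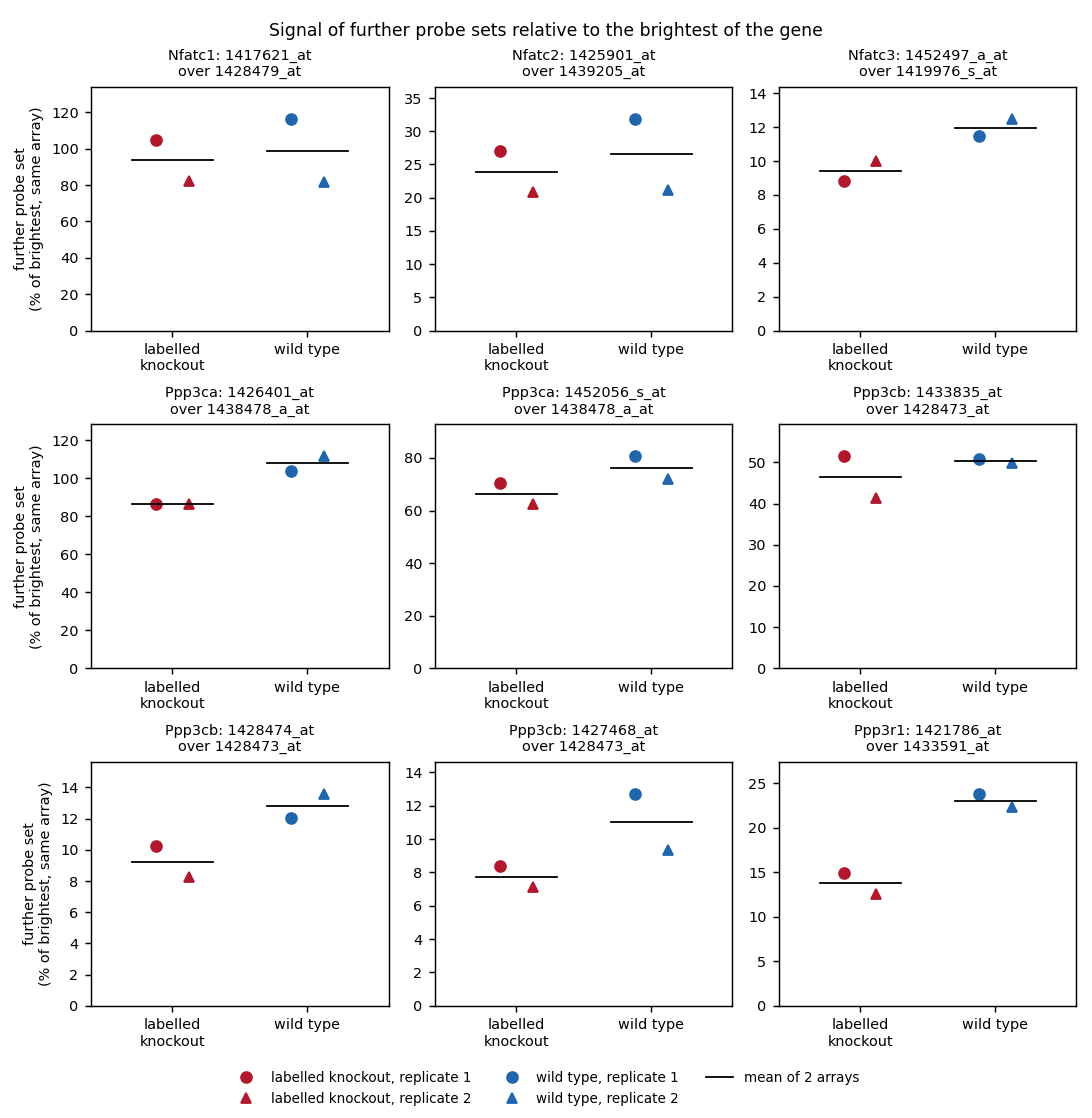
Signal of each further fitted probe set as a percentage of the brightest probe set of the same gene on the same array (linear axes from 0), for the 9 ratios of 6 genes, with circles for replicate 1, triangles for replicate 2 and a line for the mean of 2 arrays. Labelled knockout arrays stand below wild-type arrays in 6 panels, and for Ppp3r1 at 12.6% to 15.0%, against 22.3% to 23.8%.

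On their brightest probe sets the NFAT factors had log2 differences between -0.00 and 0.07. With all probe sets of a gene averaged, also those below the level filter, Nfatc1 was at -0.17 and Nfatc4 at -0.38. In a fit without that filter, the dim Nfatc4 1432821_at was at -1.60, and its other probe sets at -0.00, 0.16 and -0.10. The dim Nfatc1 probe sets 1425761_a_at, 1447084_at and 1447085_s_at were at -0.66, -0.25 and 0.01. Nfatc1, known for heart valve formation and osteoclasts, read 1958 and 1794 in the labelled knockout, against 1760 and 1801 in wild type. The values lay within a narrow band without order by genotype, and the log2 difference was 0.07 (SE 0.21, limma adjusted p = 0.965). A second Nfatc1 probe set, 1417621_at, read 2056 and 1474 in the labelled knockout, against 2050 and 1468 in wild type. It followed the replicate number almost exactly, with a log2 difference of 0.00 between genotypes.

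Nfatc2, a factor of T cells and of cartilage, likewise followed the replicate number. It read 2497 and 1944 in the labelled knockout, against 2390 and 1996 in wild type, a log2 difference of 0.01 (SE 0.22). The summed signal of the thymocyte genes had another order, highest on labelled knockout replicate 1 and lowest on wild-type replicate 1 as given above. Cd4, the exception among the genes summed, read 370 and 27.0 in the labelled knockout, against 282 and 428 in wild type. NFAT factors are abundant in thymocytes, and the part of thymus tissue in the Nfatc2 values was not tested. Nfatc3, a factor of thymocytes and muscle, read 6901 and 7845 in the labelled knockout, against 6629 and 7807 in wild type. It was higher on both replicate 2 arrays, with a log2 difference of 0.03 (95% interval -0.40 to 0.47) between genotypes, and its dimmer probe set 1452497_a_at had -0.31. Nfatc4, a factor known from the heart and nervous system, read 4724 and 4834 in the labelled knockout, against 5805 and 3958 in wild type. The 2 wild-type arrays spread around the labelled knockout pair, so that the difference was -0.30 within replicate number 1 and 0.29 within number 2, and -0.00 over all 4 arrays (SE 0.22, limma adjusted p = 0.997).

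**Figure D4:**
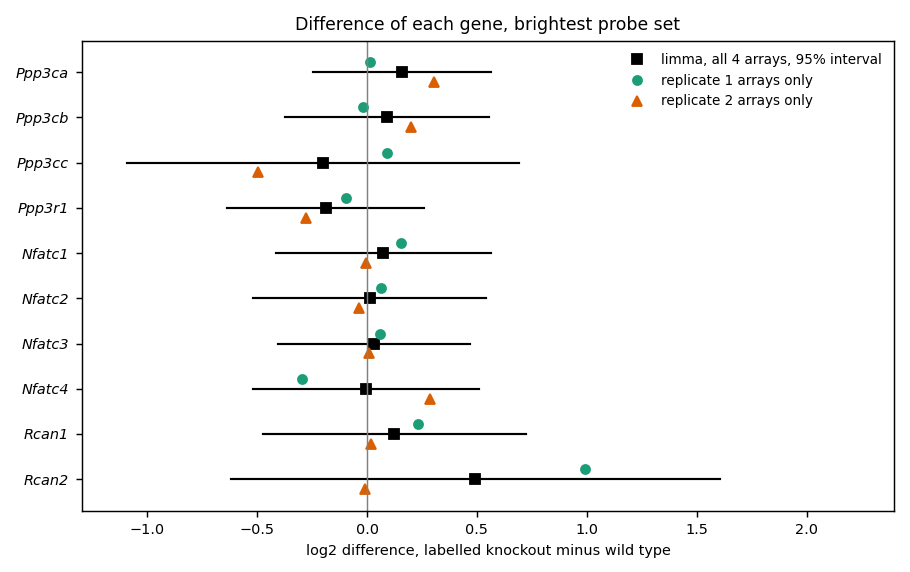
Log2 difference, labelled knockout minus wild type, of each gene on its brightest probe set, with squares and 95% intervals from the limma fit over all 4 arrays, circles for the replicate 1 arrays alone and triangles for the replicate 2 arrays alone. All 10 intervals include 0, and that of Rcan2 is the widest, from -0.62 to 1.61.

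The RCAN genes encode calcineurin-binding proteins, and Rcan1 is transcribed from more than 1 start. The RefSeq promoter table of GRCm38.p6 holds an upstream and an internal start of Rcan1 on the minus strand of chromosome 16. The 250 bases before each are shown because this gene is a known NFAT target, with the NFAT core GGAAA or its complement TTTCC in capitals. The internal start is the one known to respond to calcineurin.
Rcan1 internal start, chr16:92400079-92400328: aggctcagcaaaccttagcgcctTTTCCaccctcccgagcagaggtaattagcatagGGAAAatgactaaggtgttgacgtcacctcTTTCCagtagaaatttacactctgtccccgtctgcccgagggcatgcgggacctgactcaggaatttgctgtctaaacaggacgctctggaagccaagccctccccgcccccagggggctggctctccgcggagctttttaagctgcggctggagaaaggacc
Rcan1 upstream start, chr16:92466170-92466419: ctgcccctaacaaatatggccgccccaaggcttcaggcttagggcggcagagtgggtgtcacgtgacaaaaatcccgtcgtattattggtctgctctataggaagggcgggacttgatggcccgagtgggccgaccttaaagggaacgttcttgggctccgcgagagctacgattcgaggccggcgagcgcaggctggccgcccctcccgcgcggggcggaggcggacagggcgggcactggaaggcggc
The internal window held 3 such cores (1 GGAAA and 2 TTTCC, none overlapping), and 6.39% of all 32851 windows of this length held at least 3. The upstream window held 0. Windows of Nfatc2, Nfatc4 and Ppp3cb held 3 as well, and 7 of the 12 windows listed for 7 of these genes held at least 1, beside 55.6% of all windows. Nfatc1 was left out of this search, and no window was listed for Ppp3ca and Ppp3cc. A core is a match of letters and not a shown binding site.

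The Rcan1 probe sets are not assigned here to one start or the other. Rcan1 on 1416600_a_at read 4164 and 2741 in the labelled knockout, against 3547 and 2706 in wild type. Both replicate 1 arrays were above both replicate 2 arrays, and the genotypes overlapped. The log2 difference was 0.12 (SE 0.25, 95% interval -0.48 to 0.73, limma adjusted p = 0.951), with 0.23 and 0.02 within the replicate numbers. The dimmer Rcan1 probe set, 1416601_a_at, read 296 and 227 in the labelled knockout, against 303 and 285 in wild type.

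Rcan2, a calcineurin inhibitor known from brain and heart, had the widest range of the 10 genes. It read 1922 and 693 in the labelled knockout, against 958 and 697 in wild type. A single array, labelled knockout replicate 1, was high, and the 2 replicate 2 arrays were nearly equal. The log2 difference was 0.49 (SE 0.47, limma adjusted p = 0.889), made of 0.99 within replicate number 1 and -0.01 within number 2, and it was -0.23 without labelled knockout replicate 1 and 1.22 without labelled knockout replicate 2. The dimmer Rcan2 probe set had the same order, at 421 and 160 in the labelled knockout, against 235 and 176 in wild type. All 5 heart genes listed were likewise highest on labelled knockout replicate 1, for example the atrial peptide Nppa at 15926 and 131 in the labelled knockout, against 7728 and 2974 in wild type. Myh6, Myl7, Nppa and Tnni3 had the same full order over the 4 arrays as Rcan2, and Nkx2-5 did not. The replicate 2 arrays read 693 and 697 for Rcan2, and 131 and 2974 for Nppa, labelled knockout first. The part of heart tissue in the Rcan2 values was not tested. The 3 genes whose log2 profile over the 4 arrays was nearest to that of Rcan2 were Carns1, Asb2 and Pfkp, with root mean square differences of 0.03, 0.05 and 0.08 after centring. Carns1 encodes carnosine synthase, Asb2 a ubiquitin ligase subunit of muscle and blood cells and Pfkp a phosphofructokinase. Carns1 read 1125 and 388 in the labelled knockout, against 570 and 404 in wild type.

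Differences between the numbered replicates were larger than those between genotypes for most of these genes. The log2 difference of replicate 1 minus replicate 2, averaged over genotypes, exceeded the genotype difference in size for 8 of 10 genes, and for 54.3% of all genes tested. Ppp3cc, Ppp3r1, Nfatc2, Rcan1 and Rcan2, or 5 of 10, were higher on both replicate 1 arrays than on both replicate 2 arrays, against 27.2% of all genes tested. Nfatc3 alone was lower on both, against 18.4%, and 45.5% of all genes were apart in either direction. Of the 19 fitted probe sets 8 were higher on both replicate 1 arrays, against 30.1% of all probe sets, and 2 were lower, against 16.7%. The difference between replicates 1 and 2 was 1.45 for Rcan2, 0.98 for Ppp3cc and 0.60 for Rcan1 in the labelled knockout, and 0.45, 0.39 and 0.39 in wild type. The labels do not say what the numbers mark. The spiked controls given above also split by number, and their part in these differences was not tested.

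**Figure D5:**
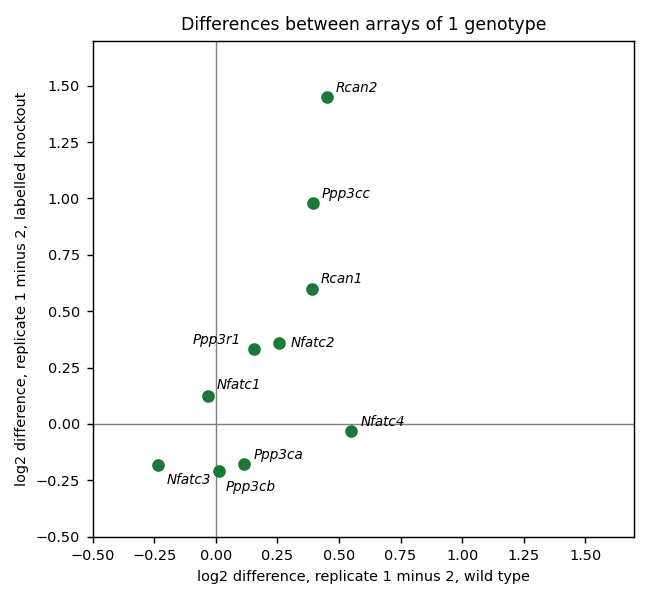
Log2 difference of replicate 1 minus replicate 2 in the labelled knockout (vertical axis) and in wild type (horizontal axis) for the 10 genes on their brightest probe sets. Rcan2, Ppp3cc, Rcan1, Nfatc2 and Ppp3r1 lie above 0 on both axes, and Nfatc3 lies below 0 on both.

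Further genes of the pathway were taken from 4 lists, of calcineurin partners, NFAT kinases and nuclear export, other factors that calcineurin acts on or that resemble NFAT, and NFAT partners and targets. Of their 58 genes 37 were tested, and 0 passed in either direction in the limma fit, where the share over all genes tested was 0%. The log2 difference was above 0 in 19 and below 0 in 18, with a median of 0.00. In the limma fit 1 of the 37, Vegfa, had an unadjusted p under 0.05, where the share over all genes tested was 4.58%.

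Calcineurin partners were above 0 in 6 of 9 tested genes, with a median of 0.15. Myoz2, or calsarcin-1, which ties calcineurin to the muscle Z-disc, read 8441 and 9790 in the labelled knockout, against 6658 and 7974 in wild type. The groups did not overlap, and the log2 difference was 0.32 (SE 0.19, limma adjusted p = 0.875). Akap5, an anchoring protein for calcineurin, read 615 and 444 in the labelled knockout, against 668 and 619 in wild type. Rcan3, the third RCAN gene, read 2131 and 2039 in the labelled knockout, against 2460 and 1914 in wild type, and Cabin1, a calcineurin inhibitor, had a log2 difference of 0.23.

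NFAT kinases and the exportin gene were even, with 5 of 10 above 0 and a median of -0.01. The largest differences by p were those of Mapk14, the p38 kinase, at 0.28 (SE 0.21), and Csnk1d, a casein kinase 1 form, at 0.27 (SE 0.25), with overlapping groups in both. Dyrk1a, the kinase that primes NFAT for export, read 8068 and 10372 in the labelled knockout, against 8179 and 10181 in wild type. It followed the replicate number, as did Gsk3b, at 10980 and 13961 in the labelled knockout, against 12229 and 16009 in wild type. The substrate factors had 5 of 9 above 0 and a median of 0.00. Among them Nfat5, the tonicity-responsive relative of NFAT, had -0.20 (SE 0.18) without overlap, and Mef2c, a calcineurin-responsive factor of muscle and cartilage, had -0.16 (SE 0.22).

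Genes listed as NFAT partners or targets were below 0 in 6 of 9 tested members, with a median log2 difference of -0.24, -0.14 within replicate number 1 and -0.36 within number 2. None passed. Vegfa, an endothelial growth factor, read 3952 and 2290 in the labelled knockout, against 5035 and 4771 in wild type, a log2 difference of -0.70 (SE 0.27, limma adjusted p = 0.875). It was at -1.09 without labelled knockout replicate 1 (limma adjusted p = 0.00042), a fit that takes its spread from the wild-type pair alone and in which 492 genes passed, and at -0.31 without labelled knockout replicate 2. Egr3, an immediate early factor of T cells and muscle spindles, read 633 and 641 in the labelled knockout, against 709 and 1158 in wild type. Of the subunits of the AP-1 factor that binds beside NFAT, Jun, Fosl2 and Fos had log2 differences of -0.24, -0.25 and -0.11, with overlapping groups for Fos. The 3 tested genes above 0 were Acp5 at 0.37, Egr2 at 0.20 and Ctsk at 0.14, each with overlapping groups. In all, 4 of the 9 were lower without overlap, against 14.6% of all genes tested. Sox9, the chondrocyte factor, read 4755 and 6228 on its brightest probe set in the labelled knockout, against 5493 and 8347 in wild type, a log2 difference of -0.31 (SE 0.25). On this probe set the groups overlapped, and both replicate 1 arrays were below both replicate 2 arrays. On the other fitted probe set of Sox9, 1424950_at, the signal was 2354 and 947 in the labelled knockout, against 3363 and 2994 in wild type. Its groups were apart, with a log2 difference of -1.08 (95% interval -2.05 to -0.10, unadjusted p = 0.035, limma adjusted p = 0.872). With all Sox9 probe sets averaged, also the dim 1433889_at, the difference was -0.66. On the brightest probe set, with each array centred on its median, it was -0.08. The other 13 of the 22 genes, among them the T-cell cytokine genes Il2, Il4 and Ifng, were dimmer than the level filter or not named on the array.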

How the data were processed

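Per the labels' protocols, 50 ng of total RNA was amplified by SPIA, and 3.75 µg of cDNA was biotin labelled. The authors deposited 1 linear intensity for each probe set and array. The submitters' processing notes name MAS5, whose version is not given in the sources used here. All arrays had a 2% trimmed mean of 1500, while medians ranged from 320 to 459.

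Of 45101 probe sets, 64 were controls, 9160 named no gene, 932 named several and 34945 named 1. Symbols of 34741 were updated by gene identifier through RefSeq GRCm38.p6. Values were tested as log2(signal + 16), which understates differences of dim genes, with limma 3.58.1 in R 4.3.3 (intensity trend, genotype only, 4 arrays) and Benjamini-Hochberg adjustment at 0.05. Signals are in replicate order. The fits of single probe sets and of ratios within arrays (no trend) were added after the data were seen. Code was tested on simulated data. Figures used matplotlib 3.10.9.

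The members and gene lists were chosen with earlier results of these data known. Named genes are the 10 members, Cacna1h, Sox9, the 2 tested genes of each further list with the smallest p and the 3 genes nearest to the member of widest range. Rcan3, Cabin1, Dyrk1a, Gsk3b, Jun, Fosl2, Fos, Wdr92 and the shared probe set were chosen after their values were seen, as were the heart and airway markers named. Marker lists of 11 cell types were measured. Beside those in the text, mean log2 differences were -0.20 for blood endothelium, -0.25 for lymphatic endothelium, 0.06 for skeletal muscle, 0.03 for neurons, -0.18 for cartilage, -0.13 for smooth muscle, -0.14 for airway epithelium, 0.17 for osteoclasts and -0.61 for thyroid. Alternatives covered the pseudocount (1 and 64), the level filter (none and the 75th percentile), quantile normalisation, centring, the trend, weighted arrays, averaged probe sets, a replicate block and each array left out.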

Additional observations from a re-analysis of the deposited data

How the results depend on the processing

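Among the 10 genes 0 were called under every alternative run. Of all genes tested, between 0 and 492 were called with 1 array left out (492 without labelled knockout replicate 1, 104 when its replicate 2 was left out, 1 without wild-type replicate 2 and 0 without wild-type replicate 1), and 0 otherwise. In the further lists 0 to 1 were called, the 1 being Vegfa without labelled knockout replicate 1. The median log2 difference of the 10 genes was -0.15 to 0.29 over the alternatives, and -0.08 to 0.12 with 1 array left out.

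Centring each array on its median gave all genes a median difference of 0.27, where it was 0.04, and put all 10 genes above 0, turning Nfatc4 (0.23), Ppp3cc (0.030), Ppp3r1 (0.045), Nfat5 (0.032) and Mef2c (0.068). Sox9, Akap5, Egr3 and Vegfa stayed below 0 after centring, at -0.082, -0.058, -0.27 and -0.47. Averaging all probe sets of a gene, also those below the level filter, put 8 of 10 below 0. It turned Nfatc1 (-0.17), Nfatc3 (-0.14), Ppp3ca (-0.014), Ppp3cb (-0.44), Rcan1 (-0.023), Mapk14 (-0.16) and Mef2c (0.025). Quantile normalisation turned Mef2c (0.00185). The cause was not tested. With 1 array left out, ranges that crossed 0 were -0.17 to 0.19 for Nfatc2, -0.085 to 0.15 for Nfatc3, -0.28 to 0.27 for Nfatc4, -0.014 to 0.20 for Ppp3cb, -0.69 to 0.29 for Ppp3cc, -0.18 to 0.42 for Rcan1, -0.23 to 1.22 for Rcan2, -0.045 to 0.58 for Csnk1d and -0.35 to 0.017 for Mef2c. Ranges that kept their sign but moved widely were -0.62 to -0.013 for Sox9, 0.11 to 0.74 for Cacna1h, 0.076 to 0.48 for Mapk14, -0.35 to -0.021 for Ppp3r1, -0.31 to -0.093 for Nfat5, -0.52 to -0.062 for Akap5, -0.85 to -0.15 for Egr3, 0.19 to 0.45 for Myoz2, 0.011 to 0.14 for Nfatc1 and 0.068 to 0.25 for Ppp3ca. With 1 array left out, the lone array of a group is assumed to vary like the other group. At the 75th percentile 8 members could be fitted.

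Ppp3r1 probe set 1421786_at was below 0 under every alternative, at -0.93 to -0.69, or -1.21 to -0.64 with 1 array left out, and passed only without labelled knockout replicate 1 (limma adjusted p = 0.0174). The shared probe set was at -0.96 to -0.71, and no nearer to 0 than -0.88 with 1 array left out. The Ppp3r1 ratio was -0.75 to -0.65 and -0.85 to -0.62. Samples of equal number deviated together (correlation 0.32 across genes, which are not independent replicates), but the labels do not say what numbers mark. The replicate block called 0 genes, as without it, and left 1421786_at at -0.92 with a limma adjusted p of 0.399. Precision is limited by 2 arrays per group.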
